A study of Rattus norvegicus with 16 samples.

Results

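The transcripts described here encode the kinases and scaffolds of the JNK cascade: Mapk8, Mapk9 and Mapk10 (JNK1, JNK2 and JNK3), Map2k4 and Map2k7, Map3k10 and Map3k12, and the JIP scaffolds Mapk8ip1, Mapk8ip2 and Mapk8ip3. Their probes were those whose gene name in the scanner output was one of these 10 symbols, which gave 10 of the 35199 gene names and 18 of the 41012 probes for transcripts. Of these 18, 17 were among the 27294 probes tested, and every gene kept at least 1 tested probe. RNA was measured in primary hippocampal neuron cultures of Sprague-Dawley rat embryos of either sex, at embryonic day 18 to 19, on Agilent 2-colour arrays. The series concerns PRR7, a synaptic adaptor protein, and the ubiquitination of c-Jun.

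There were 4 groups of 4 samples, which the design text calls biological replicates. The knockdown group (KD) received lentivirus with a short hairpin RNA (shRNA) against the PRR7 coding region. The nontargeting group (NT) received lentivirus with a control shRNA. The overexpression group (OE) received a FUGW lentivirus carrying full-length PRR7. The untransduced group (NO) received no virus, so in OE against NO the virus and its PRR7 insert cannot be told apart. The time between transduction and RNA extraction is not given in the sources used here. No probe was named Prr7, and 0 probes held the shRNA target sequence, so the arrays gave no check of the knockdown or the overexpression.

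In the JNK cascade, MAP3 kinases such as Map3k10 (MLK2) and Map3k12 (DLK) phosphorylate the MAP2 kinases Map2k4 and Map2k7, which in turn activate the JNKs. JIP scaffolds hold the tiers together, and several of them also link cargo to kinesin motors. JNKs phosphorylate c-Jun and cytoskeletal proteins, and in neurons the cascade is known for its part in axon injury signalling, axonal transport and cell death. The arrays report transcript levels, not kinase activity.

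The probe sequences below belong to Mapk10, whose single probe was called, and to genes whose probes gave different calls. Positions come from the annotation in the scanner output and refer to rn4. Capitals mark stop codons (TAA, TAG or TGA) in any of the 3 forward reading frames of the probe as the file gives it. Mapk9 A_44_P480222 lies at chr10:35378241-35378300 on the plus strand. The Mapk10 probe spans chr14:7996938-7998704 on the plus strand, 1767 bases for a probe of 60 bases, so that it crosses an intron. Both Map3k10 probes lie on the minus strand, A_44_P440686 at chr1:82752103-82752162 and A_44_P440691 at chr1:82753115-82753174. Both Mapk8ip3 probes cross introns on the minus strand, A_44_P226771 over chr10:14163671-14167270 and A_44_P469069 over chr10:14147974-14148105.
Mapk9 A_44_P480222: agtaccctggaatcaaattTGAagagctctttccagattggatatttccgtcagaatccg
Mapk10 A_44_P482281: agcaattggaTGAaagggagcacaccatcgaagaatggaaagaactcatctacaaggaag
Map3k10 A_44_P440686: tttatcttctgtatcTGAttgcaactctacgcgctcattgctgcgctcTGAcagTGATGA
Map3k10 A_44_P440691: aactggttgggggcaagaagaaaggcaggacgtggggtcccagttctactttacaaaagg
Mapk8ip3 A_44_P226771: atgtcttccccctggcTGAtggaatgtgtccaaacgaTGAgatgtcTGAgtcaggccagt
Mapk8ip3 A_44_P469069: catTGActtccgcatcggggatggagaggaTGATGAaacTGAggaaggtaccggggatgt
The Map3k10 probe A_44_P440691 had no stop codon in any of the 3 frames, and the other 5 sequences had 2 frames without one. By contrast Mapk9 A_44_P217423 and Map3k12 A_44_P132482, which are not printed, held a stop codon in all 3 frames. The annotation places Mapk9 A_44_P217423 at chr10:35383376-35383435, downstream of A_44_P480222, and the remaining Mapk9 probe, A_44_P451014, further downstream at chr10:35384260-35384318.

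Replicates 1 and 2 of a group were hybridised together, in Cy3 and Cy5, and so were replicates 3 and 4, which took 8 arrays. Slide 1 held KD and NT and slide 2 held OE and NO, so only KD against NT and OE against NO were compared within a slide. Across slides, the slide cannot be told apart from the group. Between 50.2% and 70.5% of spots were well above background in a sample, and the median net intensity of a sample was 73.2 to 150. Neuron markers were measured for 11 of 12 genes, with a mean log2 intensity of 12.95 to 13.06 in KD, 12.79 to 13.10 in NT, 12.96 to 13.07 in OE and 12.81 to 13.28 in NO over the 8 with a value in every sample. Astrocyte markers were measured for all 8 genes, at 12.50 to 12.59 in KD, 12.24 to 12.58 in NT, 12.74 to 13.09 in OE and 12.17 to 12.94 in NO, so the cultures also held astrocyte RNA. The number of arrays limits the precision of every value.

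The comparison of KD with NT asks which transcripts differ when the shRNA targets PRR7 rather than nothing. Probes of 4 member genes were higher in KD, namely Mapk9, Mapk10, Map3k10 and Map3k12, and 1 probe of Mapk8ip3 was lower. In limma, 7 of the 17 tested probes passed an adjusted p of 0.05 (Benjamini-Hochberg over all probes), against 21.1% of all 27294 probes. There were 6 higher, where 10.3% of all probes were higher, and 1 lower, where 10.9% were lower. The median log2 difference was 0.33 over the 17 probes and -0.02 over all probes, and 12 of the 17 were positive. The measured KD and NT values did not overlap for 11 of the 17 probes, as for 37.7% of all probes. Both Mapk8ip1 probes are among the 11, and each had only 2 values in KD or in NT. Several of these probes share a gene, so they are not independent. In bulk cultures, fewer cells of a type and less RNA per cell cannot be told apart.

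**Figure D1:**
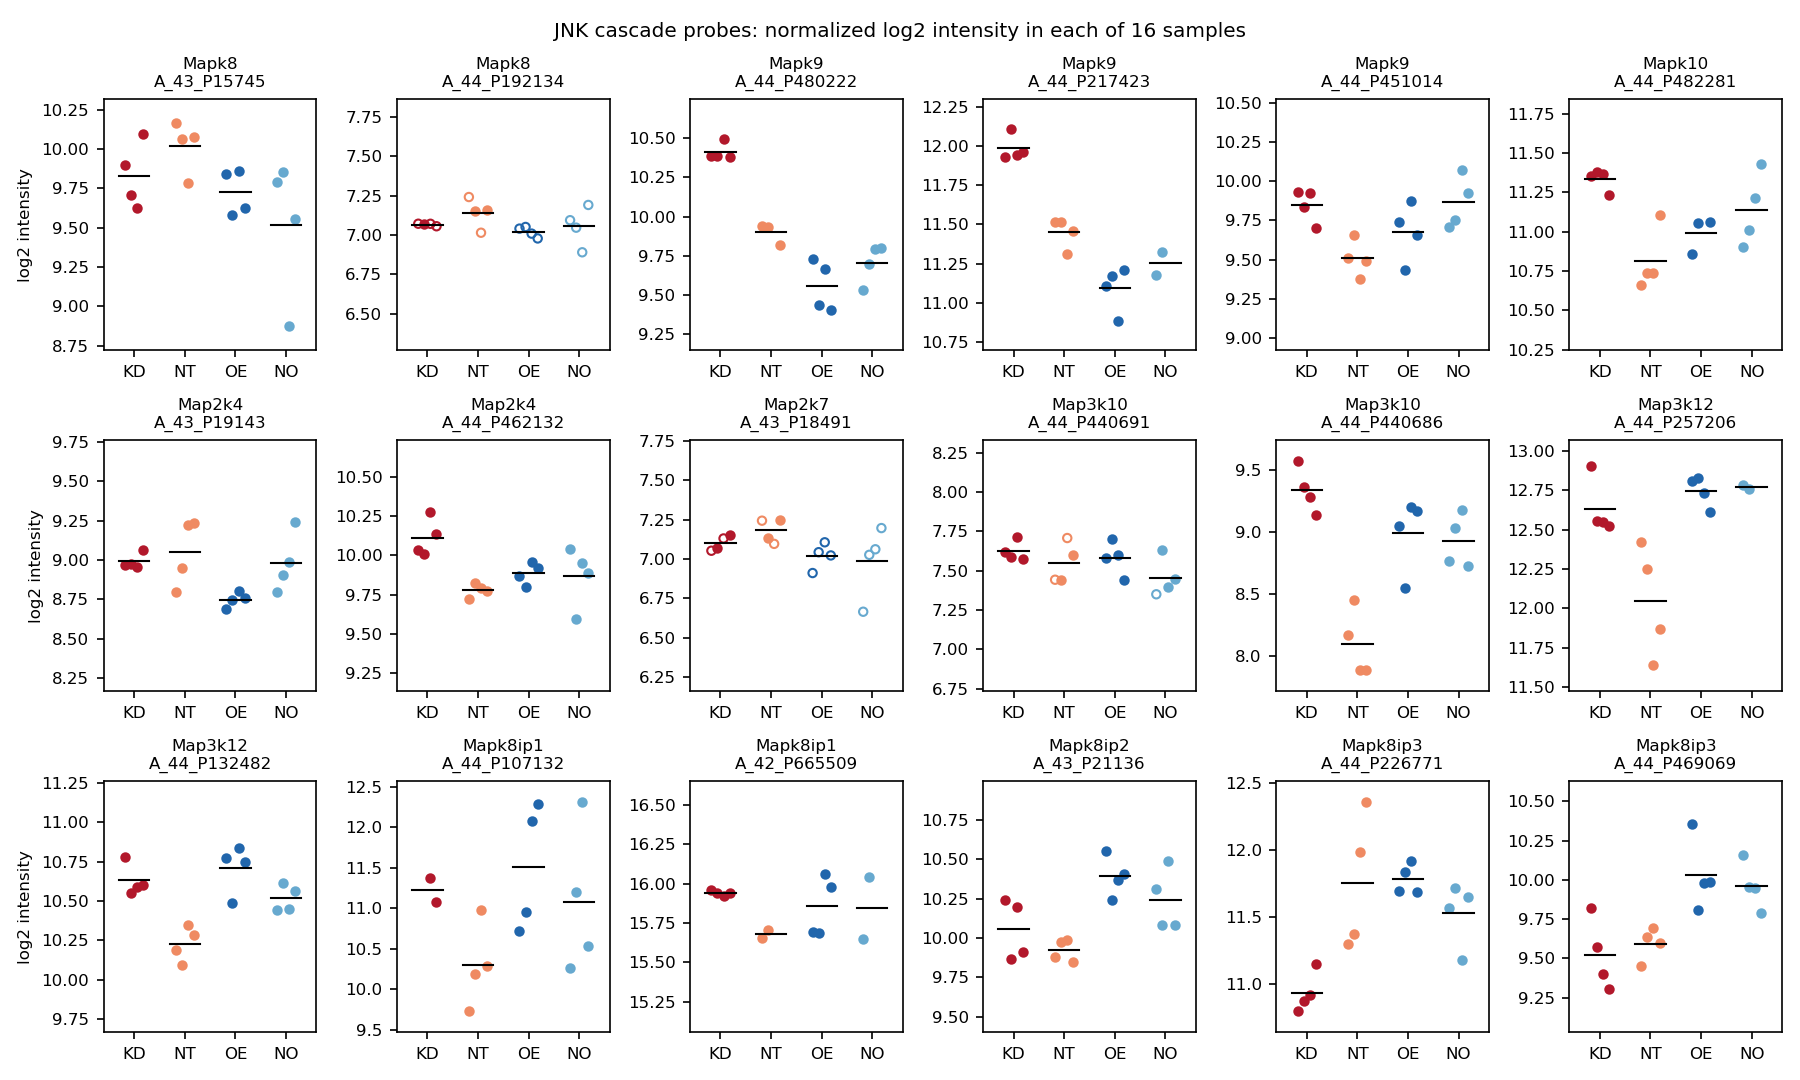
Normalized log2 intensity (y axis, its own range in each panel) of the 18 member probes in the 4 samples of KD, NT, OE and NO (x axis), with replicates 1 to 4 from left to right. Filled points were well above background, open points were not, and bars are group means; the KD points of Mapk9 A_44_P480222 and A_44_P217423 lie above all others, while the NT points of Map3k10 A_44_P440686 lie below all others.

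Among the JNKs, Mapk9 had the most probes. Mapk9 A_44_P217423 read 11.93, 12.11, 11.94 and 11.96 on the log2 scale in KD, against 11.51, 11.52, 11.31 and 11.46 in NT. In OE it read 11.11, 11.17, 10.89 and 11.21, against 11.18 and 11.33 in the 2 NO samples whose spots were not flagged as outliers. All KD values stood above all others, and the OE and NO values overlapped. The KD level was 0.53 ± 0.11 above NT on the log2 scale (SE, limma adjusted p = 0.00422), a fold of 1.45, and the call held in all 25 alternative settings.

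Mapk9 A_44_P480222 gave the same picture. It read 10.39, 10.39, 10.49 and 10.38 in KD, against 9.94, 9.93 and 9.82 in the 3 NT samples with a value. In OE it read 9.73, 9.44, 9.67 and 9.41, against 9.53, 9.70, 9.79 and 9.80 in NO. KD was again above every other sample, and was 0.51 ± 0.14 above NT (SE, limma adjusted p = 0.0176). The call was lost in 3 of the alternative settings: the difference was 0.47 without NT replicate 4 (limma adjusted p = 0.0773), 0.53 without the array of KD replicates 1 and 2 (0.0770) and 0.49 without that of KD replicates 3 and 4 (0.106).

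These 2 Mapk9 probes were also the only members that were called in KD against NO, at 0.73 ± 0.14 (limma adjusted p = 0.00474) for A_44_P217423 and 0.70 ± 0.13 (limma adjusted p = 0.00435) for A_44_P480222. That is 2 of 17 probes, against 10.1% of all probes called, 4.77% higher and 5.38% lower, and it is a comparison across slides. The order of the group means of both was KD, NT, NO and OE. Of the neighbours in that order, NT and NO gave no call, with log2 differences of 0.20 for each and 95% intervals of -0.10 to 0.49. OE and NO gave none either (-0.16 for A_44_P217423 and -0.15 for A_44_P480222). The 3 NT values of A_44_P480222 did lie above all its NO values, at 9.82 to 9.94 against 9.53 to 9.80. Its OE minus NT difference was -0.34, which did not pass (limma adjusted p = 0.0926). For A_44_P217423 the OE level was 0.36 below NT across slides (log2 difference -0.36, limma adjusted p = 0.0369), but this call was lost in 14 of 25 alternative settings, with differences of -0.49 to -0.02 over the 25 and an adjusted p of up to 0.954.

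The remaining Mapk9 probe, A_44_P451014, differed in its pattern. It read 9.93, 9.83, 9.92 and 9.70 in KD, against 9.51, 9.65, 9.38 and 9.49 in NT. It read 9.74, 9.43, 9.88 and 9.66 in OE, against 9.71, 9.76, 10.07 and 9.93 in NO. Here NT lay below KD and NO, and KD and NO overlapped. The KD minus NT log2 difference was 0.34 ± 0.15 with a 95% interval of 0.02 to 0.65, which did not pass over all probes (limma adjusted p = 0.125), and KD minus NO was -0.02. KD minus NT did pass in 4 alternative settings: at 0.69 with the authors' processed signal (limma adjusted p = 0.0303), 0.64 with the series matrix (0.0371), 0.79 with no normalization between arrays (0.0247) and 0.34 with no array block (0.0188). As a description over the samples with a value in both, of 16, which share arrays, A_44_P480222 and A_44_P217423 correlated at a Pearson r of 0.92, while their r with A_44_P451014 was 0.37 and 0.35. The array annotation lists a transcript for those 2 probes that it does not list for A_44_P451014. The KD minus NT difference of A_44_P480222 exceeded that of A_44_P451014 by 0.22 (exact permutation p = 0.0571), and that of A_44_P217423 exceeded it by 0.20 (exact permutation p = 0.0571). Both had a p of 0.0914 after adjustment over the 8 probe pairs compared, so the probes were not shown to differ. The smallest p that these samples could give was 0.0286, so an adjusted p under 0.05 was hard to reach. Here and for the other genes, the permutation treated samples that share an array as independent.

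Mapk10, the JNK most enriched in brain, had a single probe. It read 11.35, 11.38, 11.37 and 11.23 in KD, against 10.66, 10.74, 10.74 and 11.11 in NT. It read 10.86, 11.05 and 11.06 in the 3 OE samples with a value, against 10.90, 11.01, 11.21 and 11.43 in NO. KD and NT did not overlap, whereas KD and NO did. The KD level was 0.52 ± 0.15 above NT (SE, limma adjusted p = 0.0230), and KD minus NO was 0.19 (limma adjusted p = 0.463). The adjusted p was 0.132 without the array of KD replicates 1 and 2, 0.0583 without that of KD replicates 3 and 4, and 0.104 without that of NT replicates 1 and 2. The call was also lost with each array as 1 value (limma adjusted p = 0.0607) and with 2 groups only (0.0666).

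Mapk8, which encodes the broadly expressed JNK1, gave no call in any comparison. Its tested probe, A_43_P15745, read 9.90, 9.71, 9.62 and 10.09 in KD, against 10.16, 10.07, 9.78 and 10.08 in NT. In OE it read 9.84, 9.58, 9.86 and 9.62, against 9.79, 9.86, 8.87 and 9.55 in NO, where replicate 3 was low. KD and NT overlapped, and KD minus NT was -0.19 with a 95% interval of -0.76 to 0.38. The other probe, A_44_P192134, was spotted 10 times per array and was well above background in 3 of 16 samples, so it was not tested. Its mean net intensity over the 10 spots was 35.0 to 41.7 in KD, 28.4 to 45.9 in NT, 25.2 to 33.5 in OE and 32.4 to 49.8 in NO.

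The MAP2 kinases gave no call within a slide with the normalization and array block used throughout, but some alternative settings called them in KD against NT. Map2k4 (MKK4), which can activate both JNK and p38, had a pair of probes. A_44_P462132 read 10.03, 10.01, 10.27 and 10.13 in KD, against 9.72, 9.82, 9.79 and 9.77 in NT. The values did not overlap, but the log2 difference of 0.33 ± 0.13 did not pass over all probes (limma adjusted p = 0.0939). It passed at 0.69 with the authors' processed signal (limma adjusted p = 0.0127), 0.57 with the series matrix (0.0483), 0.77 with no normalization between arrays (0.0207) and 0.33 with no array block (0.00767). A_43_P19143 read 8.97, 8.98, 8.95 and 9.07 in KD and overlapped NT, at 8.80, 8.95, 9.22 and 9.24, with a difference of -0.06 (limma adjusted p = 0.796). The difference between the 2 probes was -0.39 (exact permutation p = 0.0286, the smallest that 4 against 4 samples can give, and 0.0914 adjusted over the 8 pairs). That permutation left out the sharing of arrays. Map2k7 (MKK7), which is specific to JNK, was near background. Its probe was well above background in 2 KD, 2 NT, 0 OE and 0 NO samples, and KD minus NT was -0.08 (limma adjusted p = 0.743), against 0.92 with no normalization between arrays (limma adjusted p = 0.0274).

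Map3k10 gave the largest difference of any member called in KD against NT. A_44_P440686 read 9.57, 9.36, 9.28 and 9.14 in KD, against 8.17, 8.45, 7.89 and 7.88 in NT. It read 9.05, 8.55, 9.20 and 9.17 in OE, against 8.77, 9.03, 9.18 and 8.73 in NO. The 4 NT samples were the lowest of the 16, and KD overlapped both OE and NO. KD was 1.24 ± 0.23 above NT (SE, limma adjusted p = 0.00133), a fold of 2.36 with a 95% interval of 0.75 to 1.73 on the log2 scale, and this held in all 25 alternative settings. Across slides, NT was lower than NO (log2 difference -0.83, limma adjusted p = 0.0182), OE was higher than NT (0.89, limma adjusted p = 0.0119), and KD minus NO was 0.41 (limma adjusted p = 0.290). In the order KD, OE, NO and NT, only the last neighbours, NT and NO, differed beyond their spread among the comparisons tested, which did not include KD against OE.

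The other Map3k10 probe, A_44_P440691, gave no call. It read 7.62, 7.59, 7.71 and 7.58 in KD, against 7.44, 7.44, 7.71 and 7.60 in NT, and the groups overlapped. It was well above background in 13 of the 16 samples, and KD minus NT was 0.08 (limma adjusted p = 0.743). The KD minus NT difference of this probe was 1.16 smaller than that of A_44_P440686 (difference -1.16, exact permutation p = 0.0286, the smallest possible with 4 against 4, and 0.0914 adjusted over 8 pairs). The annotation assigns both to the same transcripts.

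Map3k12, a kinase known for relaying axon damage to the nucleus, moved the same way on both probes. A_44_P257206 read 12.91, 12.55, 12.55 and 12.52 in KD, against 12.42, 12.25, 11.64 and 11.87 in NT. It read 12.81, 12.83, 12.73 and 12.61 in OE, against 12.79 and 12.76 in the 2 NO samples with a value. The NT samples were the 4 lowest. KD was 0.59 ± 0.19 above NT (SE, limma adjusted p = 0.0400), and 0.30 above it without the array of NT replicates 3 and 4 (limma adjusted p = 0.190). A_44_P132482 read 10.78, 10.55, 10.59 and 10.60 in KD, against 10.19, 10.09, 10.35 and 10.28 in NT, and again the groups did not overlap. Its difference was 0.40 ± 0.13 (SE, limma adjusted p = 0.0424). Each of the 2 calls was lost in 10 of the alternative settings, of 25 for A_44_P257206 and 24 for A_44_P132482, with adjusted p of up to 0.190 and 0.179.

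NT against NO, across slides, gave calls for 2 of the 17 probes, both lower in NT, where 22.2% of all probes were called, 11.2% higher and 11% lower. They were Map3k10 A_44_P440686 and Map3k12 A_44_P257206 (log2 difference -0.73, limma adjusted p = 0.0358). In OE against NT, also across slides, 5 of 17 probes were called, where 22.5% of all probes were, 10.6% higher and 11.9% lower. The 4 higher in OE were Map3k10 A_44_P440686, both Map3k12 probes (0.70 with a limma adjusted p of 0.0165 for A_44_P257206, and 0.48 with 0.0168 for A_44_P132482) and Mapk8ip2, and the 1 lower was Mapk9 A_44_P217423, whose call was lost in most alternative settings, as given above. KD against NT, NT against NO and OE against NT share the NT samples, so their values are not independent of each other.

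**Figure D2:**
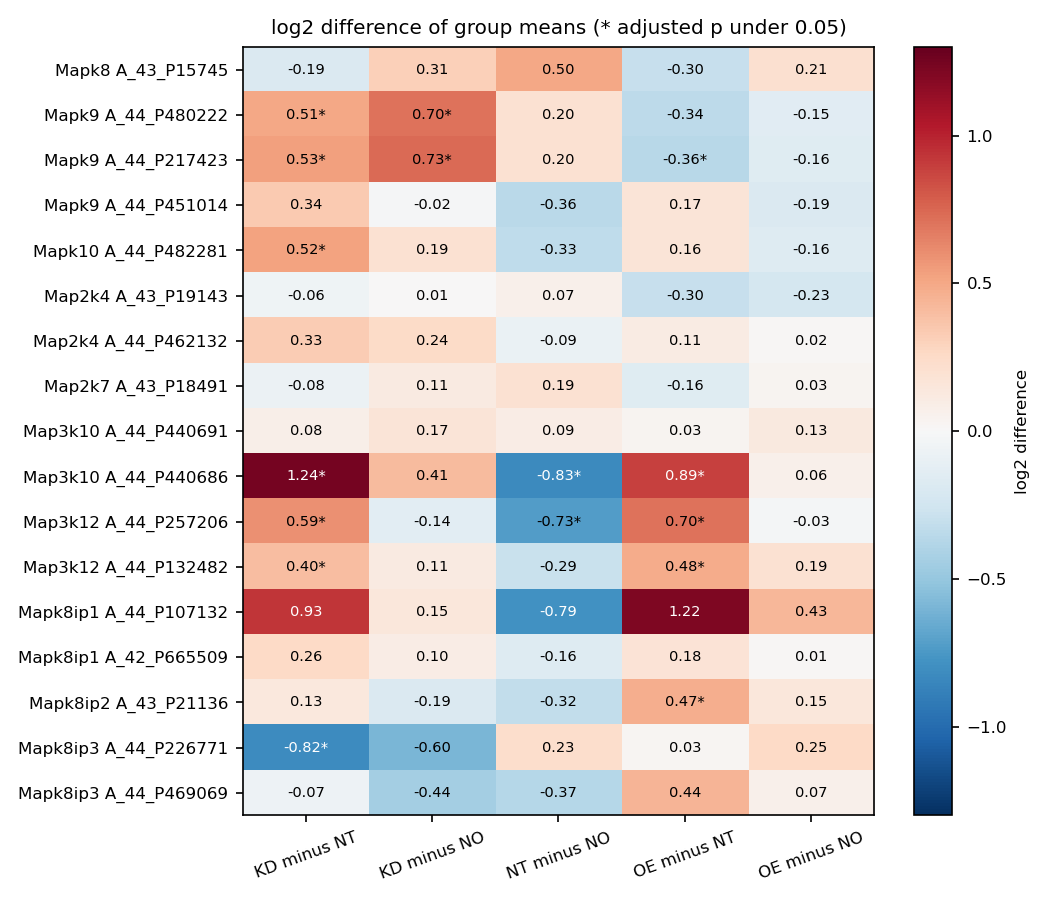
log2 difference of group means (colour and number) for the 17 tested probes (y axis) in 5 comparisons (x axis), with an asterisk where the limma adjusted p was under 0.05. The 2 Mapk9 probes A_44_P480222 and A_44_P217423 are high in both KD columns, whereas Map3k10 A_44_P440686 is high in KD minus NT (1.24) and OE minus NT (0.89) and low in NT minus NO (-0.83).

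The scaffolds gave 1 call in KD against NT. Mapk8ip3 (JIP3), a scaffold that also serves as an adaptor of kinesin, had a pair of probes. A_44_P226771 read 10.80, 10.87, 10.92 and 11.15 in KD, against 11.30, 11.37, 11.99 and 12.36 in NT. It read 11.69, 11.84, 11.92 and 11.69 in OE, against 11.57, 11.72, 11.18 and 11.65 in NO. The KD samples were the 4 lowest, and the NT samples of one array, replicates 3 and 4, the 2 highest. The KD minus NT log2 difference was -0.82 ± 0.23 (SE, limma adjusted p = 0.0165), a fold of 0.565, and KD minus NO was -0.60 (limma adjusted p = 0.109). The KD minus NT call was lost in 7 of 25 alternative settings. The difference was -0.40 without the array of NT replicates 3 and 4 (limma adjusted p = 0.148), -0.72 without that of KD replicates 1 and 2 (0.131) and -0.92 without that of KD replicates 3 and 4 (0.0544). It was -0.66 with the authors' processed signal (limma adjusted p = 0.148), -0.64 with the series matrix (0.0599), -0.48 with no normalization between arrays (0.220) and -0.82 with each array as 1 value (0.0731).

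Mapk8ip3 A_44_P469069, in contrast, read 9.82, 9.58, 9.40 and 9.31 in KD, against 9.45, 9.64, 9.69 and 9.60 in NT. The groups overlapped, with a difference of -0.07 (limma adjusted p = 0.833). The difference between the 2 probes was -0.75 (exact permutation p = 0.0571, and 0.0914 adjusted over 8 pairs). The annotation lists only GenBank and assembled cDNA sequences for A_44_P226771, and RefSeq and Ensembl transcripts for A_44_P469069.

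Mapk8ip1 (JIP1) and Mapk8ip2 (JIP2), scaffolds of neurons and endocrine cells, gave no call in KD against NT. Mapk8ip1 A_44_P107132 had values of 11.38 and 11.08 in 2 KD samples, against 9.73, 10.19, 10.98 and 10.28 in NT. It ranged from 10.72 to 12.29 in OE, against 10.26 to 12.32 in NO. The groups on the second slide overlapped over their whole range, and the KD minus NT difference of 0.93 had a 95% interval of -0.81 to 2.68 (limma adjusted p = 0.472). Mapk8ip1 A_42_P665509 read 15.92 to 15.96 in KD, against 15.65 and 15.70 in 2 NT samples, with a difference of 0.26 (limma adjusted p = 0.382). With spots flagged as outliers kept, that difference was 0.65 (limma adjusted p = 0.0445). Mapk8ip2 read 10.24, 9.87, 10.20 and 9.91 in KD, against 9.88, 9.98, 9.99 and 9.85 in NT, and 10.55, 10.24, 10.37 and 10.41 in OE, against 10.31, 10.08, 10.49 and 10.08 in NO. KD and NT overlapped (0.13, limma adjusted p = 0.575), and OE was 0.47 above NT across slides (limma adjusted p = 0.0271).

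The comparison of OE with NO asks which transcripts differ in cultures given the PRR7 virus. In limma, 0 of the 17 probes were called, with 0 at an unadjusted p under 0.05, and 0 under each alternative setting, where 0.00366% of all probes were called. The log2 differences ran from -0.23 for Map2k4 A_43_P19143 to 0.43 for Mapk8ip1 A_44_P107132, with a median of 0.03. No member had OE and NO values that did not overlap, as 6.50% of all probes had. The 95% intervals bound what could have been missed: -0.45 to 0.13 for Mapk9 A_44_P217423, -0.43 to 0.56 for Map3k10 A_44_P440686, and -0.23 to 0.73 for Mapk8ip3 A_44_P226771. The widest was -1.01 to 1.87, for Mapk8ip1 A_44_P107132, where large differences could have been missed. These intervals are not adjusted for the number of probes.

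**Figure D3:**
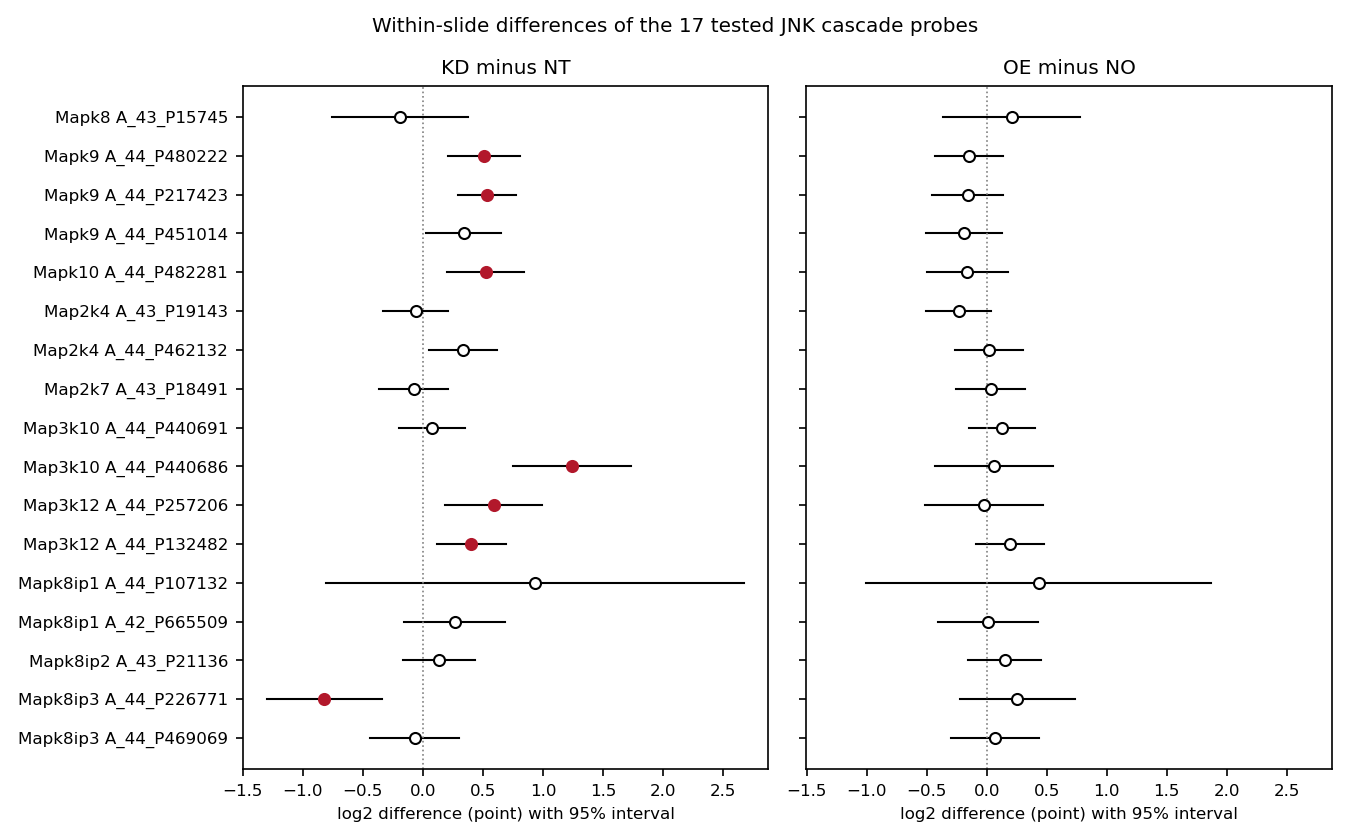
log2 differences (points) with 95% intervals (lines) of the 17 tested probes for KD minus NT (left) and OE minus NO (right); red points passed a limma adjusted p of 0.05. In KD minus NT 7 points passed, from -0.82 for Mapk8ip3 A_44_P226771 to 1.24 for Map3k10 A_44_P440686; in OE minus NO every interval includes 0.

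The difference of the 2 within-slide comparisons was tested directly, as KD minus NT less OE minus NO. It was called for 4 of 17 probes, 3 above 0 and 1 below, against 9.64% of all probes, 5.39% above and 4.24% below. Mapk9 gave 0.69 for A_44_P217423 (limma adjusted p = 0.0251) and 0.65 for A_44_P480222 (limma adjusted p = 0.0458). Map3k10 A_44_P440686 gave 1.18 (limma adjusted p = 0.0333), and Mapk8ip3 A_44_P226771 gave -1.08 (limma adjusted p = 0.0447). The value for Mapk10 was 0.69, which did not pass (limma adjusted p = 0.0645), and with the replicate number as a block it was 0.68 and passed (limma adjusted p = 0.0456). The count was 0 without NO replicate 2, without either of the KD arrays and without the array of OE replicates 1 and 2. It was also 0 with no normalization between arrays and when each array was taken as 1 value. With no normalization between arrays, Mapk8ip3 A_44_P226771 gave -0.61 (limma adjusted p = 0.422). Mapk9 A_44_P480222 gave 0.56 without the array of NO replicates 3 and 4 (limma adjusted p = 0.151).

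Other genes of the pathway did not move as one in KD against NT. Of 34 measured genes of the JNK pathway outside the members, 7 were higher and 4 lower, with a median of -0.05, where 10.3% of all probes were higher and 10.9% lower. Rac1, a GTPase upstream of the MAP3 kinases, was higher by 1.15 ± 0.11 (limma adjusted p = 4.61e-06), and Spag9, the scaffold JIP4, by 1.17 ± 0.15 (limma adjusted p = 5.20e-05). A second probe did not pass for either gene, at 0.12 for Rac1 and 0.28 for Spag9. Across slides, the first probes of both were lower in NT than in NO, at -1.38 and -1.56, and KD minus NO was -0.23 for Rac1 and -0.39 for Spag9, neither of which passed. The stress-induced MAP3 kinase activator Gadd45g was lower by 1.08 in KD (log2 difference -1.08 ± 0.19, limma adjusted p = 0.000787). Map3k2 gave -0.82 ± 0.16 (limma adjusted p = 0.00220), with -0.03 on a second probe. Set against NO across slides, Gadd45g was lower in KD too, at -0.83 (limma adjusted p = 0.0108). For the first Map3k2 probe KD minus NO was -0.14, which did not pass, and NT minus NO was 0.68 (limma adjusted p = 0.00787).

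Jun, the substrate for which the kinases are named, gave -0.17 ± 0.27 in KD minus NT (limma adjusted p = 0.727). Across slides it was lower than in NO in both shRNA groups, at -1.48 for KD (limma adjusted p = 0.00294) and -1.32 for NT (limma adjusted p = 0.00284). Of 16 other neuronal JNK substrates and partners, 2 were higher and 1 lower, beside the same 10.3% and 10.9% of all probes. The kinesin heavy chain gene Kif5a was higher by 1.35 ± 0.30 (limma adjusted p = 0.00439), and the microtubule protein gene Dcx by 0.73 ± 0.20 (limma adjusted p = 0.0150). Both were lower in NT than in NO across slides, at -1.42 for Kif5a and -1.33 for Dcx. Their KD minus NO differences were -0.07 and -0.59, neither of which passed. Nfatc4 was lower in KD than in NT (log2 difference -0.53 ± 0.11, limma adjusted p = 0.00305), and Nfatc3 gave -0.50, which did not pass (limma adjusted p = 0.0940). In the p38 and ERK modules, 1 of 17 genes was higher and 3 were lower, again beside 10.3% and 10.9% of all probes. The 3 lower genes were Map2k1 at -0.65, Mapk6 at -0.50 and Map2k3 at -0.45. For Mapk6 a second probe gave -0.04. Set against NO across slides, KD was lower for Map2k1, at -0.71 (limma adjusted p = 0.00898). For the first Mapk6 probe KD was instead higher than NO, at 0.91 (limma adjusted p = 0.00151), and for Map2k3 the difference was 4.55e-05. NT minus NO was 1.41 for that Mapk6 probe and 0.45 for Map2k3, which both passed, and -0.06 for Map2k1, which did not. None of these lists held a call in OE against NO.

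**Figure D4:**
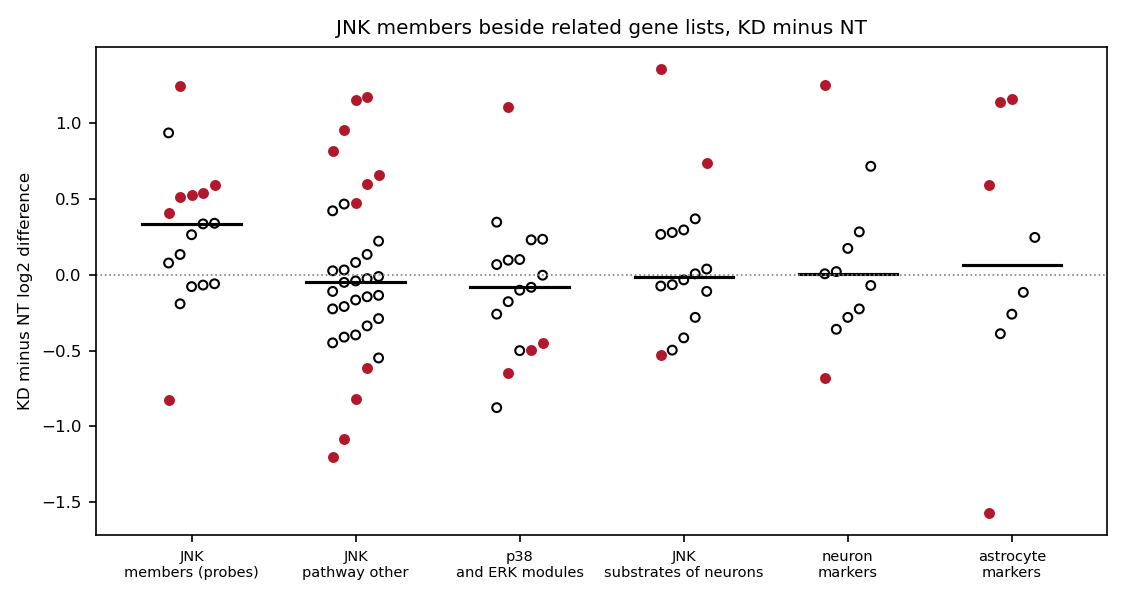
KD minus NT log2 differences (y axis) of the 17 tested member probes beside the measured genes of 5 other lists (x axis, 1 probe per gene), with filled points for a limma adjusted p under 0.05 and bars for medians. The member median is 0.33, and the median of the other genes of the JNK pathway is -0.05.

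Some markers of proliferation and of cell types also differed between KD and NT, where 10.3% of all probes were higher and 10.9% lower. The median log2 difference was 1.44 over the measured proliferation markers. It was 0.06 over the astrocyte markers, -0.03 over the oligodendrocyte markers and 0.01 over the neuron markers. Of 8 measured proliferation markers, 7 were higher in KD than in NT, among them Mcm3 at 3.10, Mcm6 at 2.06, Ccna2 at 1.74 and Mcm5 at 1.01. Their mean level over 7 genes was 9.61 to 10.04 in KD, 7.95 to 8.26 in NT, 8.74 to 9.03 in OE and 8.49 to 9.05 in NO. Of 8 astrocyte markers 3 were higher, Slc1a3 at 1.16, S100b at 1.13 and Slc1a2 at 0.59, and Gfap was lower at -1.57. Second probes passed for Slc1a3 (1.17) and Gfap (-1.78) but not for Slc1a2 (0.03). Across slides, NT was lower than NO for Slc1a3 and S100b (limma adjusted p = 0.000308 and 0.00276). Their KD minus NO differences were -0.14 and -0.28, and neither passed. For the first Slc1a2 probe KD minus NO was 0.89 and passed (limma adjusted p = 0.00278), whereas NT minus NO did not. For the first Gfap probe neither passed. Of 8 oligodendrocyte markers 2 were higher, among them Olig1 at 1.26. Mbp and Mog gave -0.34 and -0.38 and did not pass. Their mean level over 7 genes was 8.32 to 8.35 in KD, 8.12 to 8.19 in NT, 8.31 to 8.41 in OE and 8.32 to 8.62 in NO. Of 11 neuron markers Gad1 was higher at 1.25 and Nefl lower at -0.68. For Gad1, NT minus NO was -1.58 and passed, whereas KD minus NO was -0.33 and did not. For Nefl these were 0.15 and -0.53, and neither passed. In KD against NT, none of 4 measured microglia markers and none of 5 fibroblast and vascular markers passed. Their mean levels were 7.90 to 7.99 and 8.36 to 8.44 in KD, against 7.90 to 8.04 and 8.34 to 8.59 in NT. The part of these markers in the JNK probe differences was not tested.

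The genes most like Map3k10 A_44_P440686 over the 16 samples, by Pearson r and as a description of samples that share arrays, were Dnajc14 (0.94), Suv39h2 (0.94), Egln3 (0.94), Slc35f1 (0.93) and Fscn1 (0.93). All 5 had their lowest group mean in NT, which follows largely from their selection, as NT was also lowest for that Map3k10 probe. For Egln3 the means were 10.16 in KD, 8.83 in NT, 9.77 in OE and 9.81 in NO.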

How the data were processed

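Per the file headers, the deposited intensity values are spot means and median backgrounds from Agilent Feature Extraction 10.7.3.1 and were not normalized. The series matrix gives the authors' own log2 values. A label field that described tissue of hormone-treated adult animals went against the culture protocol and was not used. Normalization used normexp (offset 50), loess within arrays (weight 0 for control spots) and Aquantile between arrays, in limma 3.58.1 with statmod 1.5.0 under R 4.3.3; tables were read with the data.table package, version 1.17.8. Outlier spots were left out of their dye, and repeat spots averaged. A probe was tested if well above background in at least 4 samples, with at least 12 values and 2 per group. The fit had group and dye as fixed terms, array as random block (correlation 0.562), and 11 residual and 4.05 prior degrees of freedom. All tests were two-sided. Because samples share arrays, p-values measure only the spread between these samples.

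Every member probe is named. Of each other list up to 4 genes with the smallest p in KD minus NT, and Jun, are named (a few that this rule takes are not reported here), and of the probes with a gene symbol the 5 most correlated with the member of largest KD minus NT difference. A list gene is represented by 1 probe, the one with the highest mean. Members and lists were chosen with earlier results of these data known. The exact permutation test of probe pairs (two-sided) was added after the data were seen. It shuffled single samples as if they were independent, although samples share arrays, so its p-values can be too small. The model was tested on simulated data. Figures used matplotlib 3.10.9 (Python 3.11.15).

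After removal of group means, same-numbered KD and NT samples correlated at 0.130, 0.153, 0.265 and 0.192 over probes. Same-numbered samples also share a dye, and with dye means removed too the values were 0.180, 0.122, 0.182 and 0.122. Same-numbered KD and NO samples, on different slides, correlated at 0.162, 0.171, 0.268 and 0.196. For OE and NO 1 of 4 correlations was negative (-0.201). The reported fit had no pair term, and the replicate number was used only as a block in an alternative setting.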

Additional observations from a re-analysis of the deposited data

Results flagged for a closer look

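In 3 of 65 groups of 4 values, 1 sample stood far from the other 3; chance gives about 1 in 20. They were KD replicate 3 of Mapk9 A_44_P480222 at 10.49, KD replicate 4 of Mapk10 at 11.23 and KD replicate 1 of Map3k12 A_44_P257206 at 12.91. The KD minus NT and OE minus NO differences themselves differed by 0.65 and 0.69 for the Mapk9 probes A_44_P480222 and A_44_P217423, by 1.18 for Map3k10 A_44_P440686 and by -1.08 for Mapk8ip3 A_44_P226771. Each of the 2 differences was taken within a slide, KD and NT on slide 1 and OE and NO on slide 2. Which viruses were compared therefore cannot be told apart from the slide they were compared on.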

How the results depend on the processing

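In KD against NT, the 7 calls among member probes became 3 with each array as 1 value and ranged from 2 to 7 when samples or arrays were left out; 2 were called with either of the KD arrays left out. OE against NO gave 0 throughout. For NT against NO, 2 became 7 with the authors' processed signal, 8 with no array block, 1 with the series matrix, each array as 1 value or 2 groups only, and 0 with no normalization between arrays; leaving samples or arrays out gave 0 to 3. For KD against NO, 2 became 1 with 1 probe per gene or no normalization between arrays and 4 with no array block, and 1 to 2 with samples or arrays left out. For OE against NT, 5 became 8 with processed signal or no array block, 2 with the series matrix and 3 with each array as 1 value, and 0 to 6 with samples or arrays left out. For the difference of comparisons, 4 became 2 with processed signal or offset 0, and 0 with no normalization between arrays or each array as 1 value, with 0 to 5 when samples or arrays were left out. Settings that drop samples or average arrays hold fewer values; the cause was not tested otherwise. Map2k7 in KD minus NT, at -0.08 and not called, was 0.92 and called with no normalization between arrays. Mapk8 A_43_P15745, Map2k4 A_43_P19143 and Mapk8ip3 A_44_P469069, below 0 and not called, were above 0 and not called with that setting, with the processed signal and with the series matrix. The median KD minus NT difference of all probes was 0.64 with no normalization between arrays, 0.18 with the processed signal and 0.16 with the series matrix, against -0.02 as reported, and the KD against NT calls were then 10, 8 and 8 higher with 0 lower. Relative to those medians Mapk8ip3 A_44_P226771 was -1.11, -0.84 and -0.80. With the replicate number as a block, KD against NT kept 7 calls, and the Mapk10 difference of comparisons (0.68) was the only member call to change.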
